A study of Mus musculus with 4 samples.

Results

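The genes described here encode the subunits, activators, inhibitor and assembly chaperones of the mouse proteasome. The rule uses symbols and a count minimum, not fold changes: it takes protein-coding genes named Psma, Psmb, Psmc, Psmd, Psme, Psmf or Psmg with a number and at least 20 counts summed over the libraries. Of 52636 genes in the table, 50 protein-coding genes had such a symbol and 47 reached 20 counts. The testis subunit gene Psma8 and the thymus subunit gene Psmb11 had no counts in any library, and Psme2b had 8 counts, against 541 for the least counted gene kept, Psme2. The 4 pseudogenes with such symbols had 0 counts. Of the 47, Psmc3ip is a member by symbol only, since it encodes a meiotic recombination factor named for its partner.

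The proteasome degrades proteins that carry ubiquitin chains. Its core particle is a barrel of stacked rings, in which outer alpha rings gate the entry and inner beta rings hold the catalytic sites. A regulatory particle caps the barrel: its base contains a ring of ATPases that unfold substrates, and its lid removes ubiquitin. In blood cells the catalytic beta subunits can be replaced by inducible ones, giving the immunoproteasome that makes peptides for MHC class I. The transcription factor NRF1, encoded by Nfe2l1, is known to raise proteasome genes together when proteasome activity falls.

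The RNA came from Hoxb8 cells, a mouse line named for the homeobox gene used to hold blood progenitors in a dividing state. The groups were cells carrying the empty vector (EV; 2 libraries) and cells with DNMT3AR882H (R882H; 2 libraries), a form of the enzyme that sets new DNA methylation with a substitution found in acute myeloid leukaemia; no treatment is given for either group. The series concerns heme biosynthesis and copper-dependent cell death, and the comparison is of transcripts in cells with and without the variant. Whether the lines are clones, and whether replicates came from separate cultures, is not given in the sources used here, so the p-values rest on the spread of these libraries alone, which may be technical.

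Libraries held between 5470330 and 5921985 counts. All 9 myeloid progenitor markers were detected, with summed levels of 2479 to 2577 counts per 1000000 counts (CPM) in EV and 4009 to 4059 CPM in R882H. Most of that rise is Mpo, with 30.4 and 34.9 CPM in EV and 1213 and 1270.4 CPM in R882H; Kit, Flt3 and Mpo rose, Hoxb8 fell and the other 5 were not called. Hoxb8 itself had 25, 44, 15 and 4 counts in EV 1, EV 2, R882H 1 and R882H 2, and a vector-borne copy need not carry the counted 3′ end. Markers of other cell types moved with the groups. Summed over each list, 6 of 6 B cell markers had 209.9 to 219.7 CPM in EV and 471.8 to 516.5 CPM in R882H. Of 6 basophil and mast cell markers 5 were detected, with 91.1 to 95.1 CPM in EV and 406 to 417 CPM in R882H, and Fcer1a at 0. Most of that rise is Cpa3, with 21.3 and 23.7 CPM in EV and 288 and 312 CPM in R882H. Cpa3, Prss34 and Mcpt8 rose, Gata2 fell (edgeR adjusted p = 7.88e-05) and Ms4a2 was not tested. The 4 megakaryocyte markers had 873 to 1059 CPM in EV and 21.8 to 26.9 CPM in R882H, nearly all of it Pf4 in EV. Of these 4, Pf4 and Ppbp fell, Itga2b rose (edgeR adjusted p = 0.00466) and Gp9 was not called (0.41). The T cell list had 615 to 704 CPM in EV and 8.07 to 11.4 CPM in R882H, nearly all of it Thy1, with Cd3e, Cd4 and Cd8a at 0. Macrophage markers had 52.4 to 55.6 CPM in EV and 61.3 to 69.6 CPM in R882H with Mrc1 and C1qa at 0, erythroid markers at most 2.75 CPM with Hba-a1 at 0, and 4 of 4 stromal markers were at 0. Among the macrophage markers Cd68 rose (edgeR adjusted p = 1.75e-05), Adgre1 fell (8.70e-07) and Csf1r was not called (0.21). The Y-linked gene Ddx3y had 0, 2, 65 and 41 counts in the same order of libraries, while Xist had 1438 to 1880 counts in each. The labels do not give the cells' origin, so a difference in origin between the groups and the variant cannot be told apart. The part of these differences in the proteasome results was not tested, and fewer cells of a type and less RNA per cell cannot be told apart.

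Proteasome transcripts were lower in R882H cells, by a modest amount and in many genes. Of the 47 genes, 21 fell, 3 rose and 23 did not pass the test (edgeR quasi-likelihood test, Benjamini-Hochberg adjusted p below 0.05 over 11444 tested genes). The 21 are 44.7% of the members, where 19.4% of all tested genes fell, and the 3 are 6.38%, where 19.3% of all tested genes rose. Among the 6217 tested genes at least as abundant as Psme2, the least abundant member, 22.1% fell and 18.1% rose. The median log2 fold change (R882H over EV, as throughout) was −0.30 over the members and 0.012 over all tested genes. Both R882H libraries lay below both EV libraries for 30 members (33.9% of all tested genes) and above them for 5 (35.2%). Without R882H replicate 1 the median was −0.22 over the members and 0.012 over all tested genes. Without EV replicate 1 these medians were −0.26 and 0.016.

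The members together held 1.05% and 0.985% of all counts in EV replicates 1 and 2 and 0.808% and 0.860% in R882H replicates 1 and 2. Their summed level was 10163 ± 586 CPM in EV against 8417 ± 582 CPM in R882H, 17.2% lower (mean ± SD, n = 2 per group, as throughout). Against the EV mean, the median member lay at 0.07 and −0.07 on the log2 scale in EV replicates 1 and 2. It lay at −0.37 in R882H replicate 1 and −0.22 in R882H replicate 2, so the first R882H library stood farther from EV.

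**Figure D1:**
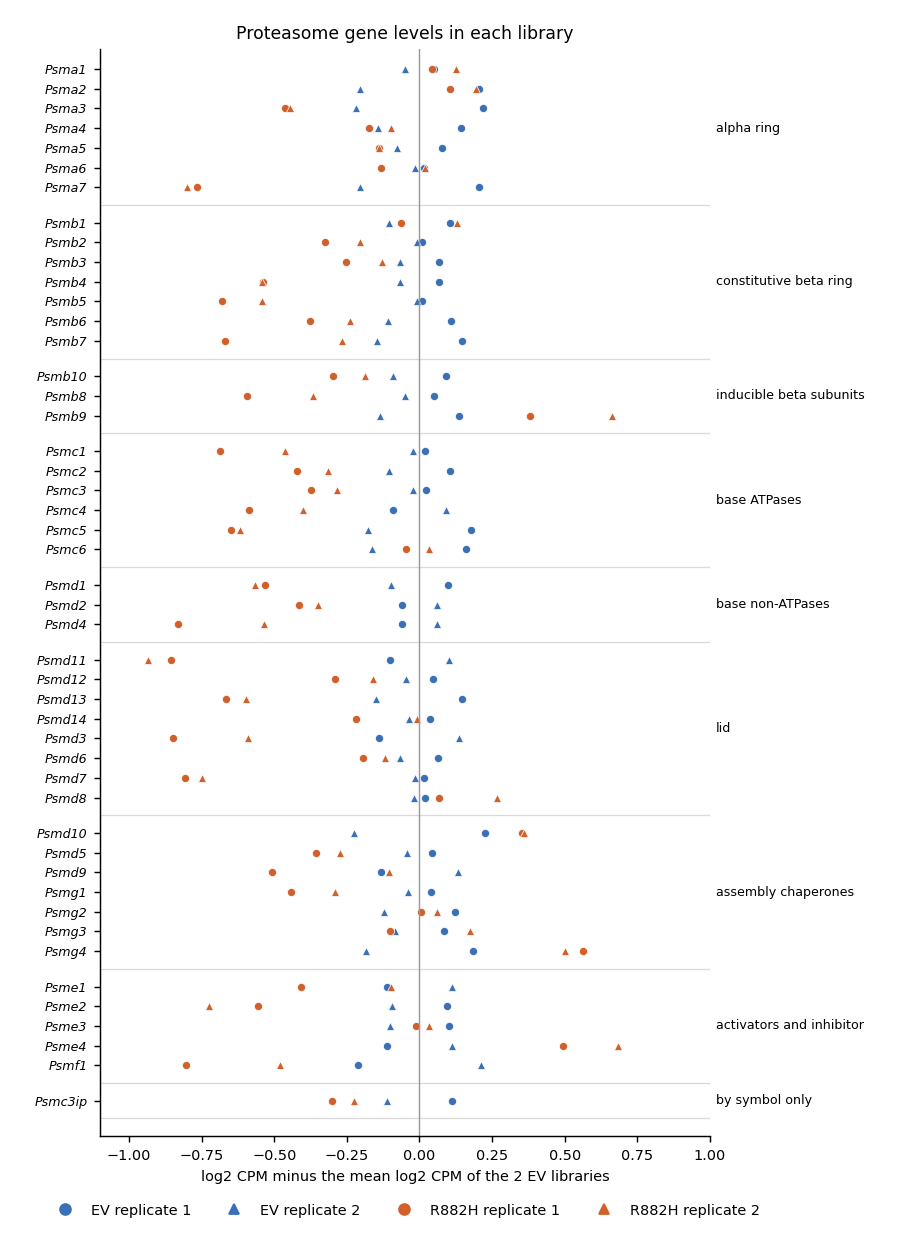
Level of each of the 47 genes in each library, as log2 CPM minus the mean log2 CPM of the 2 EV libraries (x axis), with genes grouped by role (y axis). R882H points lie left of both EV points for 30 genes and right of both for 5, among them Psmb9, Psmg4 and Psme4.

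In the alpha ring, 2 of 7 genes fell (28.6%, where 19.4% of all tested genes fell) and none rose. Psma7, a subunit of the ring, had 683 and 515 CPM in EV and 349 and 340.0 CPM in R882H. Both R882H libraries were below the lower EV library, and the log2 fold change was −0.80 ± 0.14 (SE; edgeR adjusted p = 2.93e-05). The gene (ENSMUSG00000027566) lies on mm10 chromosome 2, 180036374 to 180042433. Psma3 had 290.1 and 214 CPM in EV and 181 and 183 CPM in R882H, and EV replicate 1 stood above the other 3 libraries. Its log2 fold change was −0.47 ± 0.14 (adjusted p = 0.00757) with all libraries and −0.24 without EV replicate 1 (adjusted p = 0.130). Its call also ended without R882H replicate 1 (adjusted p = 0.0897) and without R882H replicate 2 (adjusted p = 0.0744). The other 5 alpha genes were not called, with log2 fold changes from −0.14 for Psma4 and Psma5 to 0.14 for Psma2. Psma1 and Psma6 had log2 fold changes of 0.085 and −0.056. Psma2 had 647 and 487 CPM in EV and 604 and 642 CPM in R882H, and it passed the test as higher without EV replicate 1 (log2 fold change 0.35, adjusted p = 0.0310). Within the ring, whose protein holds its subunits in equal number, levels in EV ran from 70.1 CPM for Psma5 to 599 CPM for Psma7, 8.54-fold apart. Tags come from transcript ends whatever the transcript's length, so CPM was not divided by length.

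The constitutive beta ring showed 3 falls among 7 genes (42.9%, where 19.4% of all tested genes fell) and no rise. Psmb5 encodes the chymotrypsin-like catalytic subunit, the main target of proteasome inhibitor drugs. It had 392 and 387 CPM in EV and 243 and 267 CPM in R882H, with no overlap between the groups (−0.61 ± 0.13, edgeR adjusted p = 0.000349). Psmb4, a structural subunit without a catalytic site, had 395 and 360.4 CPM in EV and 259.5 and 259.3 CPM in R882H (−0.54 ± 0.13, adjusted p = 0.00125). Psmb7, the trypsin-like catalytic subunit, had 266 and 217 CPM in EV and 151 and 199.8 CPM in R882H (−0.46 ± 0.14, adjusted p = 0.0102). Its call ended without R882H replicate 1 (−0.26, adjusted p = 0.365) and without EV replicate 1 (adjusted p = 0.111). The Psmb7 exons overlap 405 bases of those of Nek6 on the other strand, up to the Psmb7 3′ end. Nek6 had 1514, 1304, 1002 and 1233 counts beside 1450, 1228, 902 and 1138 for Psmb7, and without strand their reads could not be told apart; the strand setting is not given in the sources used here. Psmb6, the caspase-like catalytic subunit, had 298 and 256 CPM in EV and 213 and 234 CPM in R882H and missed the threshold (−0.31 ± 0.13, adjusted p = 0.0635). It passed with library size only (adjusted p = 0.0413) and without EV replicate 2 (adjusted p = 0.0129). Psmb2, Psmb3 and Psmb1 had log2 fold changes of −0.26, −0.19 and 0.033 and were not called.

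The 3 inducible catalytic genes did not move together. Psmb9, which replaces Psmb6, had 289 and 239 CPM in EV and 343 and 417 CPM in R882H. Both R882H libraries were above both EV libraries, a difference past the test (0.52 ± 0.14, edgeR adjusted p = 0.00294). The call ended without R882H replicate 2 (0.39, adjusted p = 0.138). Psmb8, which replaces Psmb5, had 553 and 515 CPM in EV and 354 and 413 CPM in R882H (−0.48 ± 0.14, adjusted p = 0.00539), a fall that was no longer called without R882H replicate 1 (−0.36, adjusted p = 0.219). Psmb10, which replaces Psmb7, had 147 and 129.7 CPM in EV and 112 and 121 CPM in R882H and was not called (−0.24 ± 0.13, adjusted p = 0.143). It passed as lower without EV replicate 2 (−0.34, adjusted p = 0.0472).

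Shares within each catalytic pair do not depend on library scaling. Psmb9 made up 49.3% (95% exact binomial interval 47.5 to 51.0) and 48.3% (46.4 to 50.1) of the Psmb9 and Psmb6 counts in EV replicates 1 and 2. In R882H it made up 61.7% (60.0 to 63.3) and 64.0% (62.4 to 65.6). The log2 ratio of Psmb9 to Psmb6 was −0.071 ± 0.040 in EV and 0.76 ± 0.10 in R882H, a difference of 0.83. It was 0.76 to 0.90 when each library was left out in turn. Psmb8 made up 58.5% (57.1 to 59.9) and 57.1% (55.7 to 58.4) of its pair with Psmb5 in EV and 59.3% (57.6 to 60.9) and 60.7% (59.2 to 62.3) in R882H, a log2 ratio difference of 0.13 between groups that spread by 0.060 and 0.061 (SD). Both genes of that pair fell. Psmb10 made up 35.6% (33.7 to 37.7) and 37.4% (35.3 to 39.6) of its pair with Psmb7 in EV and 42.7% (40.2 to 45.2) and 37.8% (35.6 to 40.1) in R882H. For that pair the R882H libraries differed from each other more than the second one did from EV, and the Nek6 overlap may touch its Psmb7 counts. In each of the 3 pairs both R882H ratios exceeded both EV ratios. The exact permutation test on 2 against 2 libraries gave p = 0.333 for each pair (two-sided, adjusted 0.333), the smallest this design allows. Intervals cover counting error only.

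**Figure D2:**
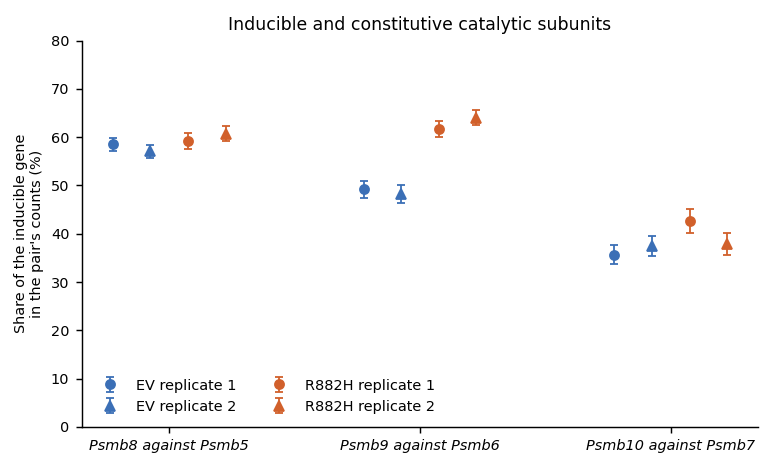
Share of the inducible gene in the counts of its catalytic pair (y axis, percent) for the 3 pairs (x axis), 1 point per library with its 95% exact binomial interval. The Psmb9 shares of 61.7% and 64.0% in R882H stand above 49.3% and 48.3% in EV, while the Psmb8 shares lie between 57.1% and 60.7% in all 4 libraries.

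Psmb9 and Psmb8 sit in the MHC class II region of mm10 chromosome 17, with 9957 bases between them, and each has a peptide transporter gene beside it. Psmb9 (ENSMUSG00000096727, 34181987 to 34187764, minus strand) is divergent from Tap1 (34187553 to 34197225, plus strand). Their RefSeq starts, at 34187330 and 34187556, are 225 bases apart. Tap1 had 617, 872, 992 and 959 counts, both R882H libraries above both EV libraries, and missed the threshold (0.32 ± 0.14, edgeR adjusted p = 0.0651). Psmb8 (34197721 to 34201454) and its neighbour Tap2 (−0.22 ± 0.14, adjusted p = 0.225) had negative log2 fold changes. The 212 bases of exon that Psmb9 shares with Tap1 lie at least 5566 bases from the Psmb9 3′ end, where the tags are read. The 498 bases that Psmb8 shares with Gm20496 lie at least 1197 bases from its 3′ end, and Gm20496 had 5 to 11 counts. The stretch between the RefSeq starts of Psmb9 and Tap1 holds a GC box and a CCAAT box, printed here because Psmb9 rose. All 250 bases before the RefSeq start of Psmb9 are exonic in GENCODE, whose Psmb9 gene begins farther upstream at 34187764, so these boxes lie within annotated exon. They are from RefSeq, build GRCm38.p6, on the Psmb9 strand 5′ to 3′ with the box in capitals.
Psmb9 GC box, 55 to 50 bases before the start, chr17:34187370-34187395: cgcgatgatgGGGCGGggcctcagtc
Psmb9 CCAAT box on the other strand, 8 to 4 bases before the start, chr17:34187331-34187348: gcagccgctgATTGGaaa

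In the base of the regulatory particle 8 of 9 genes fell, where 19.4% of all tested genes fell. Of the 6 ATPase genes, 5 fell, with log2 fold changes between −0.33 for Psmc3 and −0.64 for Psmc5. Psmc5 had 111 and 87.0 CPM in EV and 62.7 and 64.1 CPM in R882H (−0.64 ± 0.14, edgeR adjusted p = 0.000336). Psmc1 had 209 and 204 CPM in EV and 128 and 149.7 CPM in R882H (−0.57 ± 0.13, adjusted p = 0.000788). Psmc4 had a log2 fold change of −0.49 ± 0.13 and Psmc2 one of −0.37 ± 0.13. Psmc6 was the exception, with 187 and 149 CPM in EV and 162 and 171 CPM in R882H, which overlap (−0.016 ± 0.14, adjusted p = 0.938). The calls of Psmc1 (adjusted p = 0.0882), Psmc2 (0.274), Psmc3 (0.347) and Psmc4 (0.149) ended without R882H replicate 1. Psmc2 (0.120) and Psmc3 (0.190) also lost theirs without R882H replicate 2, and Psmc2 (0.101) and Psmc3 (0.0536) without EV replicate 1. In DESeq2 the adjusted p was 0.0509 for Psmc2 and 0.0607 for Psmc3. Psmc3, the weakest of the 5 (adjusted p = 0.0447), also lost its call without a low-count filter (0.0656) and with the replicate number as a block (0.0544), and its exons overlap those of Slc39a13 by 215 bases.

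All 3 non-ATPase genes of the base fell. Psmd4, the ubiquitin receptor Rpn10, had 309 and 336 CPM in EV and 181 and 223 CPM in R882H (−0.68 ± 0.14, edgeR adjusted p = 0.000144). The scaffold gene Psmd1 had 223 and 194.5 CPM in EV and 144 and 140.4 CPM in R882H (−0.55 ± 0.13, adjusted p = 0.00106). Its partner scaffold Psmd2 had 201 and 219 CPM in EV and 157 and 164 CPM in R882H (−0.38 ± 0.13, adjusted p = 0.0193), and was not called without R882H replicate 1 (adjusted p = 0.223) or without R882H replicate 2 (adjusted p = 0.132). Psmd1 shares 301 exon bases on its own strand with Gm21972, which had 122 to 172 counts, against 800 to 1215 for Psmd1. Summed, the 3 genes had the lowest ratio of any class, 741 ± 11.8 CPM in EV against 505 ± 31.9 CPM in R882H, 31.9% lower.

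In the lid 4 of 8 genes fell (50%, where 19.4% of all tested genes fell), among them the member with the largest fall. Psmd11 (ENSMUSG00000017428, chromosome 11, 80428615 to 80473248), the lid subunit Rpn6, had 82.2 and 94.6 CPM in EV and 48.7 and 46.2 CPM in R882H. At −0.90 ± 0.14 on the log2 scale (edgeR adjusted p = 2.60e-06) it was the member with the lowest value. Psmd7 (ENSMUSG00000039067, chromosome 8, 107580381 to 107588464), the partner of the lid's deubiquitinase, had 299.7 and 293 CPM in EV and 169 and 176 CPM in R882H (−0.78 ± 0.13, adjusted p = 1.15e-05). Its libraries were close within each group, with SDs of 4.82 and 5.01 CPM. Psmd3, the lid gene with the most tags in EV, had 578 and 699 CPM in EV and 353 and 422 CPM in R882H (−0.72 ± 0.14, adjusted p = 0.000109). Psmd13 had 198 and 161 CPM in EV and 113 and 118 CPM in R882H (−0.64 ± 0.14, adjusted p = 0.000275), and its 342 exon bases shared with Sirt3 lie at least 16334 bases from its 3′ end.

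The other 4 lid genes were not called. Psmd14, the deubiquitinase itself, had 259 and 246 CPM in EV and 217 and 251 CPM in R882H (−0.11 ± 0.13, edgeR adjusted p = 0.544). Psmd12 and Psmd6 had log2 fold changes of −0.22 and −0.16. Psmd8 had 468 and 457 CPM in EV and 484 and 556 CPM in R882H, above EV in both libraries but not past the test (0.17 ± 0.14, adjusted p = 0.335). In EV, Psmd7 and Psmd14 stood at 296 ± 4.82 and 253 ± 9.24 CPM, and in R882H at 173 ± 5.01 and 234 ± 24.1 CPM. The order of this pair, which forms a dimer in the lid, was thus opposite in the 2 groups. The lid summed to 2147 ± 34.6 CPM in EV against 1678 ± 142 CPM in R882H, 21.9% lower.

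**Figure D3:**
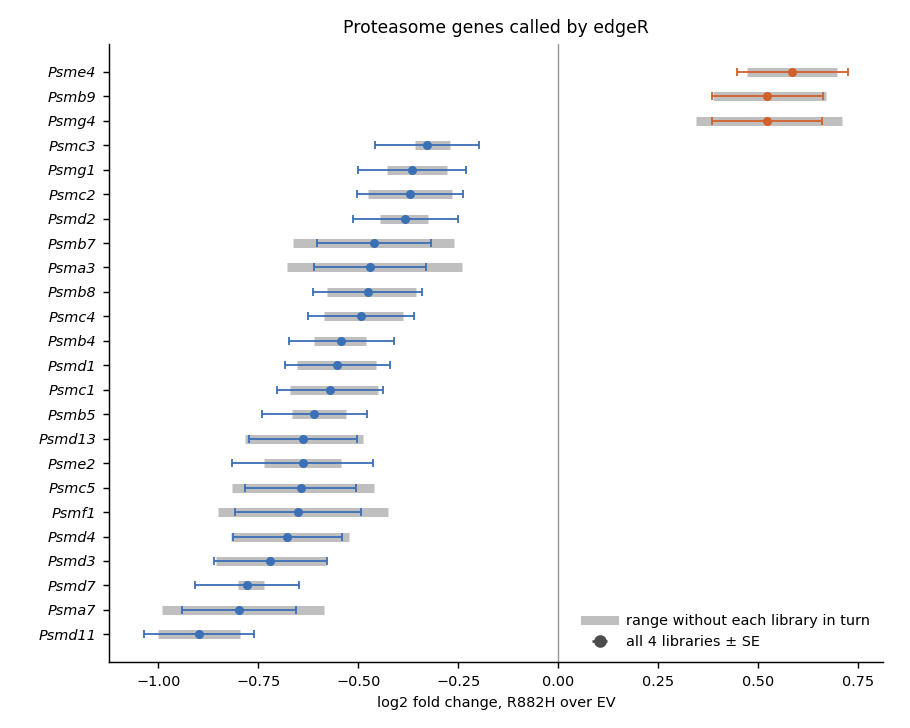
Log2 fold change (x axis) of the 24 called genes (y axis) with all 4 libraries, bars showing ± 1 SE from edgeR, and grey bands the range when each library was left out in turn. The 21 genes that fell run from −0.90 for Psmd11 to −0.33 for Psmc3, the 3 that rose lie between 0.52 and 0.59, and no band reaches 0.

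Assembly chaperone genes moved little as a class, with 1 rise, 1 fall and 5 genes not called among 7. The rise and the fall are each 14.3% of the class, where 19.3% of all tested genes rose and 19.4% fell. Psmg4, a partner in the chaperone pairs that build the alpha ring, had 81.4 and 63.2 CPM in EV and 106 and 102 CPM in R882H, above EV in both libraries (0.52 ± 0.14, edgeR adjusted p = 0.00283). Without EV replicate 2 its log2 fold change was 0.35 and the call ended (adjusted p = 0.0524). Its chaperone partner Psmg3 had 150.0 and 134 CPM in EV and 132 and 159.7 CPM in R882H (0.041 ± 0.14, adjusted p = 0.839). Psmg1 had 74.3 and 70.4 CPM in EV and 53.2 and 59.2 CPM in R882H (−0.37 ± 0.14, adjusted p = 0.0311). This fall was lost without R882H replicate 1 (adjusted p = 0.312), without R882H replicate 2 (0.0966), without EV replicate 1 (0.0777) and in DESeq2 (0.119). Psmg2, the partner of Psmg1, had a log2 fold change of 0.029 ± 0.13.

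The base chaperones Psmd10, Psmd5 and Psmd9 did not pass the test. Psmd10, the oncoprotein gankyrin on chromosome X, had 36.1 and 26.5 CPM in EV and 39.5 and 39.7 CPM in R882H (0.34 ± 0.17, edgeR adjusted p = 0.107). It passed as higher without EV replicate 1 (0.57, adjusted p = 0.0154). Psmd5 had 108 and 101 CPM in EV and 81.7 and 86.5 CPM in R882H, without overlap (−0.32 ± 0.13, adjusted p = 0.0543). It passed as lower with DESeq2 size factors in edgeR (0.0480), with library size only (0.0455) and without EV replicate 2 (0.0373). Psmd9 had 39.1 and 47.0 CPM in EV and 30.1 and 39.8 CPM in R882H (−0.30 ± 0.16). The class summed to 548 ± 42.7 CPM in EV and 548 ± 33.5 CPM in R882H.

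Among the alternative caps, Psme4 rose while Psme2 and the inhibitor gene Psmf1 fell. Psme4 (ENSMUSG00000040850, chromosome 11, 30771726 to 30880361) encodes PA200, a nuclear activator that opens the core particle without ATP. It had 52.1 and 60.9 CPM in EV and 79.3 and 90.4 CPM in R882H, with no overlap (0.59 ± 0.14, edgeR adjusted p = 0.000913), and was the only rise that kept its call under every alternative run. Psme1 and Psme2, which lie 5912 bases apart on chromosome 14, encode the alpha and beta chains of the interferon-inducible PA28 ring. Psme2 had 31.0 and 27.2 CPM in EV and 19.7 and 17.6 CPM in R882H (−0.64 ± 0.18, adjusted p = 0.00410), and was not called without R882H replicate 2 (adjusted p = 0.0775). Whether reads of Psme2 and its near copy Psme2b were separated was not tested. Psme1 had 213 and 249 CPM in EV and 174 and 215 CPM in R882H, which overlap (−0.25 ± 0.14, adjusted p = 0.149), and passed as lower without EV replicate 1 (−0.36, adjusted p = 0.0451). Its last 14 bases overlap Emc9 on the other strand.

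Psme3, the nuclear PA28 gamma, had 163 and 142 CPM in EV and 151 and 156 CPM in R882H (0.0081 ± 0.13, edgeR adjusted p = 0.968). Psmf1, which encodes the core inhibitor PI31, had 51.2 and 68.7 CPM in EV and 34.0 and 42.5 CPM in R882H (−0.65 ± 0.16, adjusted p = 0.00127). EV replicate 2 was the highest library, and without it the log2 fold change was −0.43 (adjusted p = 0.0619). The Psmf1 call also ended without R882H replicate 1 (−0.48, adjusted p = 0.0639). Psmc3ip, the member by symbol only, had 44.6 and 38.1 CPM in EV and 33.5 and 35.3 CPM in R882H (−0.27 ± 0.16, adjusted p = 0.187), and its last 385 bases overlap Mlx on the other strand.

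The classes thus differed in how far their summed level moved. The constitutive beta ring summed to 1936 ± 147 CPM in EV against 1544 ± 119 CPM in R882H, 20.3% lower, and the base ATPases to 1130 ± 59.0 CPM in EV against 871 ± 51.9 CPM in R882H, 22.9% lower. The alpha ring had 2388 and 1921 CPM in EV and 1828 and 1908 CPM in R882H. EV replicate 1 stood above the other 3 libraries, so that the alpha ring's 13.3% difference was within the spread of EV (SD 330 CPM). Over base and lid together 12 of 17 genes fell (70.6%), and over the alpha and constitutive beta rings 5 of 14 (35.7%). Over all tested genes 19.4% fell. The difference between these classes was not tested.

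**Figure D4:**
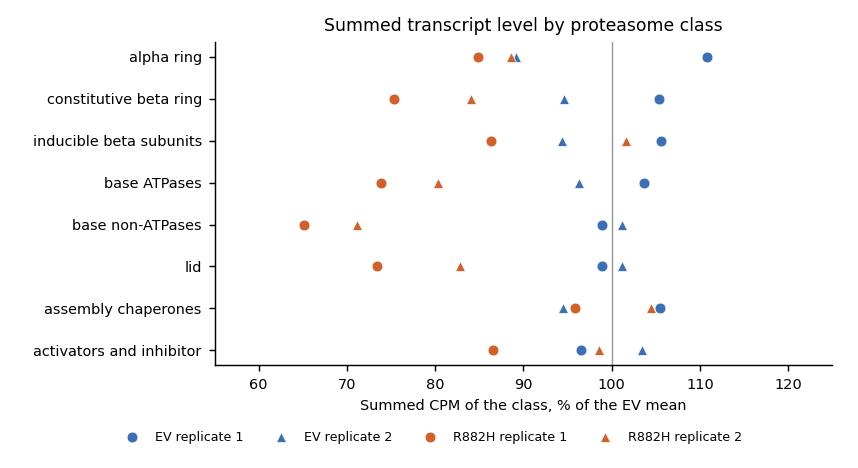
Summed CPM of each class of proteasome genes in each library, as percent of the EV mean (x axis), by class (y axis). R882H libraries lie below both EV libraries for the alpha ring, where EV replicate 2 lies close to them, the constitutive beta ring, the base and the lid, and among the EV libraries for the assembly chaperones.

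Of 47 members, 40 had a RefSeq promoter entry; Psmb1, Psmb2, Psmb7, Psmc3, Psmd3, Psmd7 and Psmg2 had none. The 250 bases before each start were searched on both strands for the antioxidant response element TGACNNNGC, the letters read by NRF1 and NRF2. They occurred in 5 of 40 members (12.5%), against 11.5% of 27025 genes with an entry. Of the 5, Psmb5 fell and the others were not called, and no member that rose had a match. The matches are shown because this element is the textbook link between the factor and proteasome genes, in RefSeq sequence of build GRCm38.p6, on the gene's strand with the element in capitals. In Psmc6 and Psmd12 the element lies on the other strand, so the capitals there read GCNNNGTCA.
Psmb5, 47 to 39 bases before the start, chr14:54618024-54618052: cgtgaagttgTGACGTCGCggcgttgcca
Psmb6, 9 to 1 bases before the start, chr11:70525338-70525356: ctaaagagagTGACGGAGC
Psmd9, 31 to 23 bases before the start, chr5:123228149-123228177: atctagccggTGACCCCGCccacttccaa
Psmc6, 227 to 219 bases before the start, chr14:45329587-45329615: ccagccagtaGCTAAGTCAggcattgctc
Psmd12, 247 to 239 bases before the start, chr11:107479278-107479299: tctGCTGTGTCAcatttgcccc

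Other letters searched on both strands were the interferon response core (GAAA, NN and GAAA in a row), the STAT site core TTCNNNGAA, the CCAAT box CCAAT and the GC box GGGCGG. The interferon core occurred in 3 of 40 members (7.5%, against 3.46% of all genes): Psmb3, Psmd4 and Psmd9. The STAT core occurred in 2 (5%, against 8.13%), Psmb8 (whose 250 bases are all exonic in GENCODE) and Psmg1, and the CCAAT box in 14 (35%, against 37.5%). The GC box occurred in 22 (55%, against 35.4%). It was present in the 3 members that rose, in 6 of 17 that fell and in 13 of 20 not called. No interferon or STAT core was found in the Psmb9 window, which says only that these letters are not in these 250 bases. The GC boxes of the other 2 risen genes are printed beside that of Psmb9, which is given with its locus; both lie on the other strand.
Psme4, 58 to 53 bases before the start, chr11:30771707-30771732: ctccgtggccCCGCCCcggaagtgac
Psmg4, 29 to 24 bases before the start, chr13:34162925-34162950: gttctaggccCCGCCCactcatgctc

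Genes that work with the proteasome but carry other names were described from lists chosen for this purpose. Of 13 tested proteasome-associated genes 3 fell (23.1%, where 19.4% of all tested genes fell) and none rose, with a median log2 fold change of −0.088. Adrm1, the base ubiquitin receptor Rpn13, had 37.2 and 45.9 CPM in EV and 22.6 and 27.4 CPM in R882H (−0.74 ± 0.17, edgeR adjusted p = 0.000812), in the same direction as the other receptor gene Psmd4. Usp14, the deubiquitinase of the base (−0.38 ± 0.13), and the ligase Ube3c (−0.37 ± 0.14) also fell, and both lost the call without R882H replicate 1 (adjusted p = 0.170 and 0.154) and without R882H replicate 2 (0.168 and 0.214). Ube3c lost it also without EV replicate 2 (0.103) and in DESeq2 (0.121). The lid gene Sem1 (0.21 ± 0.13) and the core maturation factor Pomp (0.20 ± 0.15) were not called. The exons of Usp14 overlap those of Thoc1. Paaf1 was not analysed here.

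The polyubiquitin gene Ubb (0.16 ± 0.14) and the ubiquitin-ribosomal fusion gene Rps27a (0.34 ± 0.15) were not called by edgeR, and neither were the ubiquitin-activating enzyme genes Uba1 (−0.14 ± 0.14) and Uba6 (−0.25 ± 0.15). In substrate delivery 3 of 10 genes fell (30%, where 19.4% of all tested genes fell) and none rose (median −0.23). Faf1, a cofactor of the unfoldase Vcp, had 140.3 and 158 CPM in EV and 54.0 and 61.6 CPM in R882H (−1.37 ± 0.14, edgeR adjusted p = 4.72e-10). Nploc4, another Vcp cofactor (−0.86 ± 0.15), and the shuttle factor Ubqln1 (−0.51 ± 0.13) fell too, and Ubqln1 was not called without R882H replicate 1 (adjusted p = 0.0653). Vcp itself had a log2 fold change of −0.26 ± 0.14 (adjusted p = 0.126).

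None of the 7 genes of NRF1 control was called by edgeR, 1 had an unadjusted p below 0.05 and the median was −0.17. Nfe2l1 had 343, 330, 346 and 285 counts in EV 1, EV 2, R882H 1 and R882H 2 (−0.17 ± 0.14, adjusted p = 0.364), and Ddi2, the protease that activates NRF1, had −0.27 ± 0.13 (adjusted p = 0.111). Of 6 cytosolic peptidases 2 fell (33.3%, beside the same 19.4%) and none rose: Thop1, which trims proteasome products, had 25.1 and 30.2 CPM in EV and 9.37 and 11.4 CPM in R882H (−1.41 ± 0.20, adjusted p = 6.02e-07), and Npepps had −0.53 ± 0.14. Npepps was not called without R882H replicate 2 (adjusted p = 0.0823).

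The MHC class I list, whose products load the peptides that proteasomes make, moved the other way. Of 12 genes 6 rose, 1 fell and 5 were not called (median 0.34), where 19.3% of all tested genes rose. Nlrc5, the class I transactivator, had 24.2 and 32.7 CPM in EV and 54.7 and 50.4 CPM in R882H (0.88 ± 0.16, edgeR adjusted p = 4.56e-05). Irf1, an interferon-induced factor, had 76.8 and 81.7 CPM in EV and 118 and 139.9 CPM in R882H (0.70 ± 0.13, adjusted p = 7.89e-05). The class I heavy chain gene H2-K1 (0.62 ± 0.14) and the light chain gene B2m (0.52 ± 0.15) rose. So did the trimming peptidase Erap1 (0.37 ± 0.14) and H2-D1 (0.36 ± 0.14), and Psmb9 had a value in this range (0.52).

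Several of these class I calls were not kept under every alternative run. B2m lost its call without R882H replicate 2 (edgeR adjusted p = 0.245). Erap1 lost its call without R882H replicate 1 (0.220), without R882H replicate 2 (0.0826), without EV replicate 2 (0.156), with library size only (0.0512) and in DESeq2 (0.153). H2-D1 lost its call without R882H replicate 1 (0.166) and without R882H replicate 2 (0.264). It also lost it without a low-count filter (0.0585), with DESeq2 size factors in edgeR (0.0505) and with the replicate number as a block (0.0847). Whether reads of class I paralogs were separated was not tested, and exons of Erap1, Nlrc5 and Pdia3 overlap those of Cast, 9330175E14Rik and Catsper2. The chaperone gene Pdia3 fell (−0.90 ± 0.13).

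**Figure D5:**
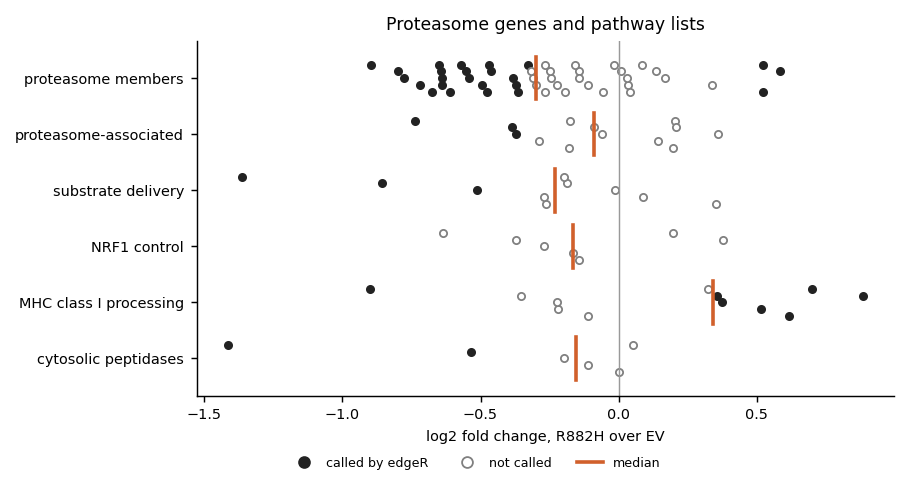
Log2 fold change (x axis) of the 47 proteasome genes and of the genes of 5 pathway lists (y axis). Filled points were called by edgeR, open points were not, and bars mark medians, which run from −0.30 for the proteasome genes to 0.34 for the MHC class I list.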

How the data were processed

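RNA of 4 Hoxb8 libraries was profiled by QuantSeq, which reads tags near transcript 3′ ends. The authors deposited raw counts for each Ensembl gene in each library, per the file headers. The submitters' processing notes name the mm10 build, HISAT2 2.0.4, cutadapt 1.14, bcl2fastq 2.17.1.14, Subread 2.0.0 with featureCounts, limma 3.48.3 and edgeR 3.34.0. Neither their roles nor the annotation, strandedness and handling of multiply mapped reads are given in the sources used here.

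Symbols, positions and exon overlaps (either strand, other gene with at least 10 counts) came from GENCODE M21, which is on the mm10 assembly. The test was the quasi-likelihood F test of edgeR 4.0.16 (R 4.3.3), with the filterByExpr filter, TMM scaling, robust glmQLFit and glmQLFTest. Its p-values were adjusted over all 11444 tested genes and called below 0.05. CPM uses TMM-scaled library sizes. SE was taken as the size of the log2 fold change divided by the root of the F statistic. Catalytic pair ratios had 0.5 added to each count. On simulated counts for these 11444 genes the test recovered 6% of the genes with a 1.25-fold change, 50% of those with 1.5-fold, 66% of those with 2-fold and 100% of those with 4-fold, and 9 of its 120 calls were false. Few genes were given a change in that simulation, while 38.8% of the tested genes were called in the data. These recovery rates may therefore not hold for the data. Replicates within a group differed beyond counting noise (chi-square per degree of freedom 6.91 in EV and 4.61 in R882H).

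Every member is named. Values in each library are given for called members with an absolute log2 fold change of at least 0.5, catalytic genes, activators, the inhibitor and other members chosen after their values were seen. From each pathway list called genes are named, at most 6 by smallest p, and some others chosen after their values were seen. Members, lists and rules were chosen with earlier results of these data known. Alternatives were other size factors, no low-count filter, DESeq2 1.42.0, each library left out and the replicate number as a block. Some genes of the lists are not reported here.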

Additional observations from a re-analysis of the deposited data

How the results depend on the processing

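Of the 24 called members, 11 (10 lower, 1 higher) kept their call under every alternative run: Psma7, Psmb4, Psmb5, Psmc5, Psmd1, Psmd3, Psmd4, Psmd7, Psmd11, Psmd13 and Psme4. The number of members lower in R882H was 21 and ranged from 11 (without R882H replicate 1) to 23 (without EV replicate 2) with a library left out, and the number higher was 3 and ranged from 2 to 5. The members' median ranged from −0.36 to −0.22. Among members with no exon overlap, an alternative added after seeing the data, 15 of 37 fell (40.5%) and 2 rose (5.41%). Of all tested genes 19.4% fell and 19.3% rose. Over all genes, 2213 were higher and 2222 lower, 1401 and 1517 in DESeq2, with ranges of 1508 to 2065 and 1446 to 2168 with a library left out. The replicate number as a block gave 20 members lower and 3 higher. Deviations of same-numbered libraries correlated with r = −0.0026 over all tested genes and 0.47 over the members, and with only 2 libraries per group the numbers were not taken to pair the samples.

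Signs turned for 9 members, none of them called with all libraries. With each library left out in turn, the log2 fold change ranged from −0.058 to 0.35 for Psma2, −0.28 to 0.00040 for Psma4, −0.12 to 0.031 for Psma6, −0.073 to 0.14 for Psmb1, −0.17 to 0.15 for Psmc6, −0.20 to 0.0043 for Psmd14, −0.092 to 0.15 for Psmg2, −0.089 to 0.18 for Psmg3 and −0.095 to 0.11 for Psme3. Psme3 also turned with DESeq2 size factors in edgeR (−6.2e-05), with library size only (−0.0089) and in DESeq2 (−9.7e-05). The cause was not tested. The number of libraries, 2 per group, limits which small changes could be called.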

Other observations

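The EV libraries differed from each other by class of proteasome gene. The median log2 difference of EV replicate 1 over EV replicate 2 was 0.28 over the 7 alpha ring genes, 0.14 over the 7 constitutive beta genes and 0.17 over the 7 assembly chaperone genes. It was −0.12 over the 3 non-ATPase base genes and −0.22 over the 5 activator and inhibitor genes, and −0.025 over all tested genes. Between R882H replicates 1 and 2 the median was −0.11 over the 47 members and 0.0023 over all tested genes, and it was negative in every class.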
